A study of Mus musculus with 6 samples.

Results

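Genes of TGF-β and BMP signaling were followed in atrial tissue of obese and lean mice, across 47 genes chosen by name from the 43432 genes with an identifier in the deposited expression table. They comprised 3 TGF-β ligands, 4 latent TGF-β binding proteins, 5 BMP ligands, 2 activin chains, 10 receptors, 8 SMADs, 6 extracellular antagonists and follistatin family members, 3 nuclear repressors and 6 target genes. All 47 names were found in the table, which lists Ccn2, the gene of connective tissue growth factor, under its older name Ctgf. No measured value entered the rule, though the members were chosen with earlier results of these data known.

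The samples were atria of wild-type C57/Bl6J mice that received either an HFD (3 samples, the obese group) or control chow (3 samples, the lean group), begun at 6 weeks of age and kept up for 10 weeks. The comparison asks how obesity changes atrial gene expression. The mice were wild type, no further treatment is named, and the labels do not separate right from left atria. The labels contradict one another, since the sample titles and the table's column names give one diet and the treatment field reverses the diets of all 6 samples. Here the titles were used, and under the treatment field every direction would turn. Whether each sample was 1 animal or a pool is not stated, so the p-values measure the spread between these samples.

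Ligands of this family bind pairs of type I and type II serine/threonine kinase receptors, which phosphorylate receptor-regulated SMADs. TGF-β and activin act mainly through SMAD2 and SMAD3, and BMPs through SMAD1, SMAD5 and SMAD9. SMAD4 is the shared partner, and SMAD6 and SMAD7 inhibit the pathway. In the heart the family is best known for driving matrix production by fibroblasts, and follistatin binds activins outside the cell.

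The reads on genes numbered between 15874251 and 28971508 per sample, with control sample 2 the deepest and the one with the largest mitochondrial share (30.7% of its reads, against 19.5% to 24.4% in the others). Values are normalized counts, the authors' read count of a gene divided by 1 size factor per sample. A count of 3 reads, taken as the smallest signal, was worth between 2.05 and 3.41 normalized counts, which covers counting error only. The atrial myocyte markers Nppa, Myl7 and Myl4 were abundant in every sample, with Nppa between 171702 and 333975 normalized counts. Summed over 6 markers (Nppa, Myl7, Myl4, Sln, Bmp10 and Sbk2) the atrial myocyte level was 287590.0, 288452 and 520943 normalized counts in HFD samples 1, 2 and 3 and 485424, 484676 and 445759 in control samples 1, 2 and 3. HFD samples 1 and 2 thus stood below the other 4 samples in this sum, and HFD sample 3 was the highest. Nppa was the largest term of the sum in every sample, and the markers did not all follow it. HFD sample 3 was the highest for Nppa, Myl4 and Bmp10 and lay within the control range for Myl7. For Sln and Sbk2, at 19799 and 2368 normalized counts, HFD sample 3 lay below every control sample.

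One member, Inhbb, rose in obese atria, and none fell, among the 45 members whose mean normalized count reached 10 (limma on log2(normalized count + 1), Benjamini-Hochberg adjusted p under 0.05 over 15275 genes). Of all genes tested, 0.746% passed the same threshold. At an unadjusted p under 0.05, 7 members (15.6%) differed, against 12.2% of all genes. Of the 45 members, 5 were higher and 2 lower in obese atria at this threshold, against 1017 (6.66%) and 847 (5.55%) of the 15275 genes. The samples of both diets did not overlap for 10 members (22.2%), 6 of them with the HFD samples above, against 18.0% of all genes. Taken without direction, both shares of the members lay near those of all genes.

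The median log2 fold change (HFD minus control) of the 45 members was 0.10, against 0.0049 over all genes tested, and the median of its absolute size was 0.22 against 0.18. The value was higher in obese atria for 31 members and lower for 14, against 7761 and 7514 of all genes tested. The signs of Ltbp1, Bmpr2, Acvr1b and Id3 turned under quantile normalization, that of Ltbp1 also without mitochondrial genes, and those of Tgfb1 and Ltbp2 in the count models. For 37 members the 95% interval lay within a log2 change of 1 in either direction. The wider or larger intervals belonged to Inhbb, Inhba, Bmp2, Bmp5, Acvr2b, Fst, Ctgf and Id4.

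**Figure D1:**
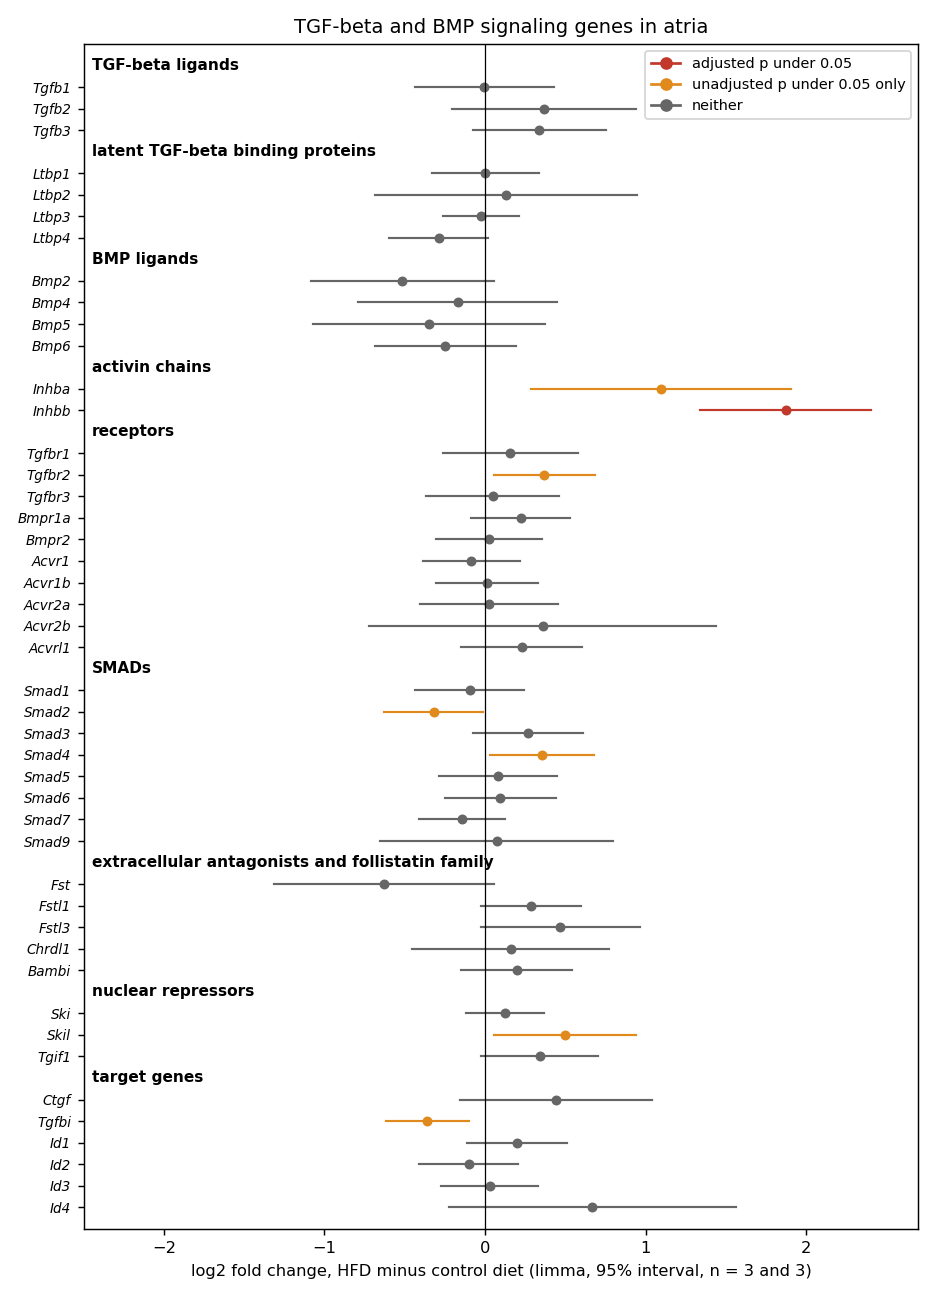
Log2 fold change (HFD minus control diet, horizontal axis) of the 45 members tested, in rows grouped by role, with the 95% interval from limma. The interval of Inhbb, at 1.34 to 2.41, lies farthest from 0, that of Inhba runs from 0.29 to 1.91, and most others cross 0.

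The activin chains differed most among the roles. Inhbb encodes the βB chain, whose dimer is activin B. It measured 264, 256 and 178 normalized counts in HFD samples 1, 2 and 3 and 78.4, 48.6 and 62.3 in control samples 1, 2 and 3. The lowest HFD sample thus lay above the highest control sample by more than the range within either diet. The means were 233 ± 47.4 and 63.1 ± 14.9 normalized counts (SD, n = 3 each), a ratio of 3.69, and the log2 fold change was 1.87 (SE 0.24, limma adjusted p = 0.00937). Over the fits without 1 sample, that of Inhbb ranged from 1.70 to 2.05. The limma adjusted p of Inhbb was 0.052 without HFD sample 2, 0.0501 without control sample 2 and 0.0613 without control sample 3, and it was 0.123 without a variance trend, so the call was lost in these fits. Over all alternatives it ran from 3.0e-09 to 0.123.

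Inhba encodes the βA chain of activin A. It measured 73.3, 37.7 and 89.7 normalized counts in the HFD samples and 32.5, 30.8 and 24.0 in the control samples, from 22 to 79 reads per sample. HFD samples 1 and 3 stood well apart from the control samples, while HFD sample 2 lay just above the highest of them. It had a log2 fold change of 1.098 (SE 0.36), with a limma unadjusted p of 0.0126 and an adjusted p of 0.235, and it ranged from 0.84 to 1.46 when single samples were left out. In normalized counts per kilobase of exon, Inhbb stood at 54.7 ± 11.1 in the HFD and 14.8 ± 3.50 in the control samples (SD, n = 3), and Inhba at 10.5 ± 4.16 and 4.55 ± 0.698. In each diet every sample thus held more Inhbb than Inhba for its exon length.

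**Figure D2:**
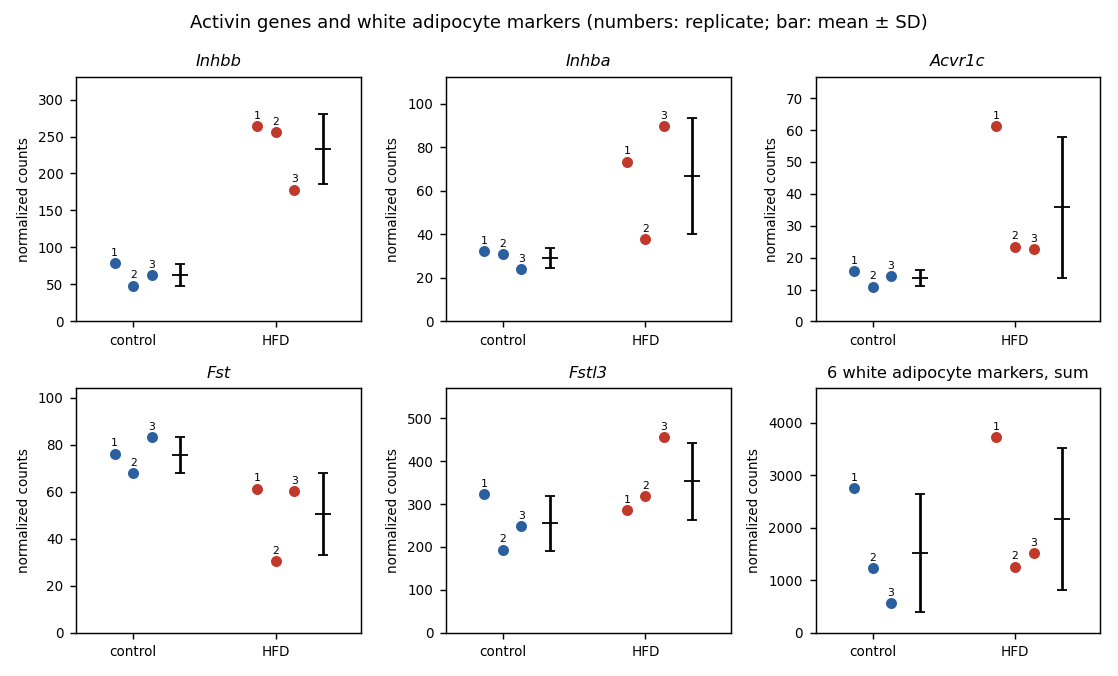
Normalized counts (vertical axes, from 0) of Inhbb, Inhba, Acvr1c, Fst and Fstl3 and the sum of 6 white adipocyte markers in each atrial sample, labelled by replicate, with the mean ± SD of each diet. The HFD samples lie above all control samples for Inhbb, Inhba and Acvr1c and below them for Fst, while the adipocyte sums of the diets overlap.

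Because atria were measured whole, fewer cells of a type and less RNA per cell cannot be told apart, and markers of several cell types are given here beside the activin chains. White adipocyte markers (Adipoq, Plin1, Cfd, Retn, Lep and Cidec, none at 0 in any sample) summed to 3718, 1257 and 1519 normalized counts in the HFD samples and 2747, 1235 and 568 in the control samples. These sums overlapped between the diets, and HFD sample 1 and control sample 1 held the most. Endothelial markers summed to 15372 to 16980.1 in the HFD and 12934 to 13755 in the control samples, which did not overlap. Of the 6, Pecam1 alone reached an unadjusted p under 0.05 (log2 fold change 0.57, limma adjusted p = 0.0504). The samples of Tie1 did not overlap either. Those of Cdh5, Kdr, Tek and Emcn overlapped, with log2 fold changes of 0.037 to 0.18. Macrophage markers summed to 9370.1 to 11049 and 7069.8 to 9234, again without overlap and with the HFD samples above. Lyz2 was the largest term of this sum in every sample. Mrc1, C1qa and Lyz2 (3 of 6, against 12.2% of all genes) reached an unadjusted p under 0.05, though the samples of each overlapped between the diets. Those of Cd68 alone did not overlap. The log2 fold changes of the 6 ran from -0.0086 (Csf1r) to 0.40 (C1qa). No marker of these types was at 0 or passed the adjusted threshold, and the part of adipocytes, endothelial cells and macrophages in the members' values was not tested. Fibroblast markers, of which 1 of 8 was higher and 1 lower at an unadjusted p under 0.05, summed to 98642 to 110096 in the HFD and 109496 to 134889 in the control samples, which overlapped. The largest term of this sum in every sample was Gsn, at 65981 to 75569 in the HFD and 77730 to 97267 in the control samples. Sums of smooth muscle and pericyte, mesothelial and ventricular myocyte markers overlapped between the diets. The largest term of the smooth muscle and pericyte sum in every sample was Rgs5 (log2 fold change 0.063). Of these 6 markers, Cnn1 alone reached an unadjusted p under 0.05 (log2 fold change 1.08, limma adjusted p = 0.187), with every HFD sample above the control samples. Myh11 and Tagln stood at 0.37 and 0.39, Pdgfrb at -0.12 and Cspg4 at -0.0094, all with overlapping samples. The ventricular sum of control sample 2, at 17399, was the highest of all samples, against 6882 to 9866 in the others. Of all markers, Sbk2, an atrial kinase, passed the adjusted threshold, and it was lower in obese atria (log2 fold change -1.08, limma adjusted p = 0.0027).

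The sequence before the start of the gene is shown for the 4 members with the smallest p among the 33 members with a RefSeq promoter entry, so that the regions can be compared. Inhbb lies on chromosome 1 (119415465 to 119422248, minus strand), Tgfbi on chromosome 13 (56609603 to 56639339, plus strand), Inhba on chromosome 13 (16011851 to 16027211, plus strand) and Tgfbr2 on chromosome 9 (116087698 to 116175363, minus strand), all in GRCm38. Each line holds the 250 bases before the RefSeq start in GRCm38.p6, written 5′ to 3′ on the gene's strand, with matches to the searched motifs in capitals.
Inhbb, chr1:119422249-119422498, minus strand: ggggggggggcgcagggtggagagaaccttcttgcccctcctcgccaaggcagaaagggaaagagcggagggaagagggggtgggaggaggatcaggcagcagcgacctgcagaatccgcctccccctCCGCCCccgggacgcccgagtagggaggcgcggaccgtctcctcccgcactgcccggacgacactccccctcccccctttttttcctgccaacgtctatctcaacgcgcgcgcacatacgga
Tgfbi, chr13:56609336-56609585, plus strand: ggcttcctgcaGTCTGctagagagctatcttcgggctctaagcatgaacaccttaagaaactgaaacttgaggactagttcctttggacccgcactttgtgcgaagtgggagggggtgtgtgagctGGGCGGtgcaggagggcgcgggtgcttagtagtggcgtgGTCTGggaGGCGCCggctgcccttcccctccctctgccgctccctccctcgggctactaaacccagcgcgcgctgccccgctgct
Inhba, chr13:16011601-16011850, plus strand: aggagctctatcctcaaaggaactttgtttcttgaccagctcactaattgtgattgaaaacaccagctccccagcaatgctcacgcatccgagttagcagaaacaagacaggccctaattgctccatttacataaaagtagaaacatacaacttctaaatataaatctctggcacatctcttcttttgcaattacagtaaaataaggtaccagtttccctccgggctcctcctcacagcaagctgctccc
Tgfbr2, chr9:116175364-116175613, minus strand: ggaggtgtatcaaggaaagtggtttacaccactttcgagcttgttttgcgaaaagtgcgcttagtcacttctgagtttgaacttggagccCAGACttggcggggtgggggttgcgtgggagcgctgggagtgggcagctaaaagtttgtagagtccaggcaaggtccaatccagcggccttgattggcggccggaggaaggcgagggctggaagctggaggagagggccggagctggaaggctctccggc

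The letters searched on both strands were the SMAD box CAGAC, the BMP-responsive GC element GGCGCC, the TEAD site GGAATG, the cAMP response element half-site TGACG and the GC box GGGCGG, where no motif contains another but matches of neighbours may share bases. Inhbb had 1 GC box and none of the other motifs, 122 bases before the start. Tgfbi had 2 SMAD boxes, 1 BMP-responsive GC element and 1 GC box, and Tgfbr2 had 1 SMAD box. Inhba had no match in this window. Their GC contents were 68%, 62.4%, 43.2% and 58.4% for Inhbb, Tgfbi, Inhba and Tgfbr2, against a median of 52.4% over all 32851 promoters. The 2 activin chains thus differed in GC content and shared no match in this window. The SMAD box occurred in 44.2% of the 43 promoters of members and in 42.2% of all promoters, the BMP-responsive GC element in 27.9% and 9.59%, the TEAD site in 4.65% and 12.6%, the half-site in 14.0% and 17.8%, and the GC box in 74.4% and 32.7%. The BMP-responsive GC element and the GC box hold only G and C, and the GC content of the 43 promoters was not compared with that of all promoters. The 43 promoters belong to 33 genes, so some genes count more than once. These matches describe letters and not occupied sites.

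No TGF-β ligand passed the test or reached an unadjusted p under 0.05. Tgfb3 had the highest level per exon length of the 3 and measured 1026, 1051 and 1669.7 normalized counts in the HFD samples against 1109.6, 884 and 908 in the control samples. HFD sample 3 stood apart, and the other 2 HFD samples lay within the range of the control samples. Tgfb3 had a log2 fold change of 0.34 (SE 0.19, limma adjusted p = 0.517), and it was 0.11 without HFD sample 3. Tgfb1, the isoform best known from fibrosis, had a log2 fold change of -0.0035 with an interval of -0.43 to 0.43. For Tgfb2 the value was 0.37, with an interval of -0.20 to 0.94, and HFD sample 3 was again the highest. It was 0.070 without HFD sample 3 and 0.61 without HFD sample 1.

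Latent TGF-β binding proteins tie secreted latent TGF-β to the matrix. Ltbp4, the most abundant of the 4, measured 13056, 15851 and 16960.2 normalized counts in the HFD samples and 20642, 18026 and 17199 in the control samples. The diets did not overlap, with the highest HFD sample close under the lowest control sample, and the log2 fold change was -0.29 (SE 0.14, limma adjusted p = 0.447), or -0.18 without HFD sample 1. Ltbp1 and Ltbp3 had log2 fold changes of 0.0015 and -0.025, with intervals of -0.33 to 0.33 and -0.26 to 0.21. Ltbp2 spread widely among the control samples, from 56.8 to 188 normalized counts, and its log2 fold change was 0.13.

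All 4 BMP ligands tested had lower values in obese atria and none passed the test, with log2 fold changes between -0.52 (Bmp2) and -0.17 (Bmp4), where that of Bmp4 turned to 0.12 without control sample 1. Bmp6 had the highest level of them, at 343, 441 and 605 normalized counts in the HFD samples and 595, 466 and 553 in the control samples. These ranges overlapped, since HFD sample 3 exceeded every control sample, and the log2 fold change of Bmp6 was -0.25 (SE 0.20), with -0.051 without HFD sample 1 and -0.46 without HFD sample 3. Bmp5 stood at -0.35, with an interval of -1.07 to 0.37 and between 33 and 70 reads per sample. Bmp7 was below the minimum for testing, with 3.01, 5.10 and 5.68 normalized counts in the HFD samples and 2.24, 1.37 and 2.19 in the control samples. That is 13 reads in all HFD samples against 6 in all control samples, and every control sample stayed under the smallest signal.

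Among the receptors, 1 of 10 reached an unadjusted p under 0.05 (against 12.2% of all genes) and none passed the adjusted threshold. The values of 9 of 10 were higher, where the signs of Bmpr2 and Acvr1b turned under quantile normalization. Tgfbr2, the type II receptor that binds TGF-β, measured 1906, 2262 and 1547 normalized counts in the HFD samples and 1478, 1378 and 1515 in the control samples. HFD samples 1 and 2 stood clear of the control samples, and HFD sample 3 exceeded the highest of them only slightly. Tgfbr2 had a log2 fold change of 0.37 (SE 0.14), with a limma unadjusted p of 0.0254 and an adjusted p of 0.327, and it was 0.24 without HFD sample 2. The type I receptor Tgfbr1 stood at 0.16 (-0.26 to 0.58) and the co-receptor Tgfbr3 at 0.048 (-0.37 to 0.46). Of the receptors for activin, which signals through ACVR1B with ACVR2A or ACVR2B, Acvr1b had a log2 fold change of 0.011 (-0.31 to 0.33) and Acvr2a one of 0.024 (-0.41 to 0.46). Acvr2b was scarce, from 10 to 26 reads per sample, and its interval of -0.72 to 1.44 was the widest of the receptors. The BMP receptors Bmpr1a, Bmpr2 and Acvr1 had log2 fold changes of 0.22, 0.025 and -0.085, and Acvrl1, the type I receptor of endothelial cells, one of 0.23.

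**Figure D3:**
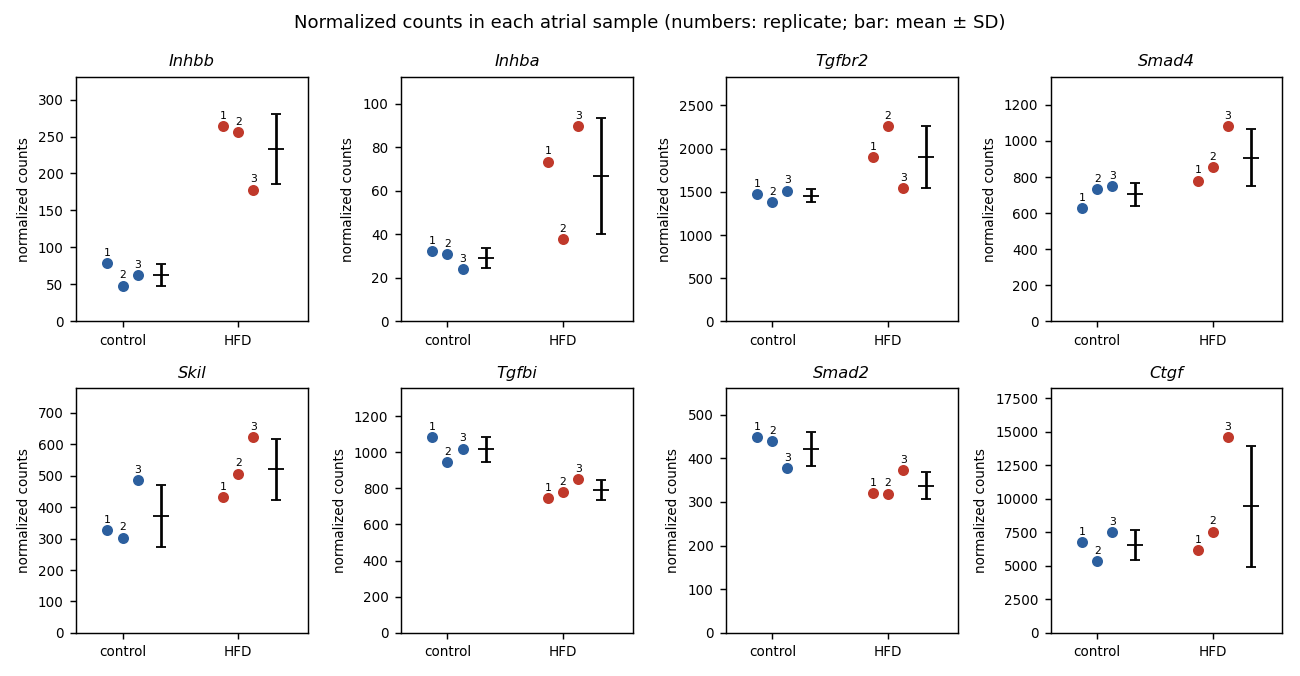
Normalized counts (vertical axes, from 0) of the 7 members with an unadjusted p under 0.05 and of Ctgf in each atrial sample, labelled by replicate, with the mean ± SD of each diet. The diets do not overlap for Inhbb, Inhba, Tgfbr2, Smad4, Tgfbi and Smad2, whereas those of Skil and Ctgf overlap.

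No SMAD passed the adjusted threshold, and 2 of 8 reached an unadjusted p under 0.05 (against 12.2% of all genes), in opposite directions. Over the 6 fits without 1 sample, Smad4 kept an unadjusted p under 0.05 in 3 and Smad2 in 2. Smad4, the shared partner, measured 781, 857 and 1082 normalized counts in the HFD samples and 628, 734 and 749 in the control samples. The diets did not overlap, and HFD sample 3 was the highest. Smad4 had a log2 fold change of 0.36 (SE 0.15, limma unadjusted p = 0.0347, adjusted p = 0.363), or 0.22 without HFD sample 3.

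Smad2, which carries TGF-β and activin signals, measured 320.5, 319 and 373 normalized counts in the HFD samples and 448, 439 and 377 in the control samples. HFD sample 3 and control sample 3 lay almost together, while the other samples were well separated. Its log2 fold change was -0.32 (SE 0.14, limma unadjusted p = 0.0445, adjusted p = 0.39). Smad3, with the same role, had a value of 0.27 and overlapping samples. The BMP-responsive Smad1 and Smad5 stood at -0.10 and 0.082. Smad9 ranged from 73.8 to 201 normalized counts among the HFD samples, with HFD sample 2 the highest, against 102 to 109 in the control samples. The inhibitory Smad6 and Smad7 had log2 fold changes of 0.10 and -0.14, with intervals of -0.25 to 0.44 and -0.41 to 0.13.

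Follistatin and the product of Fstl3 bind activin, and Chrdl1 and Grem1 encode antagonists of BMPs. None of the 5 members of this group that were tested reached an unadjusted p of 0.05. Fstl1, the most abundant, measured 2972, 3685 and 4200.3 normalized counts in the HFD samples and 3124, 2653 and 3062 in the control samples. The ranges overlapped through HFD sample 1, and the log2 fold change was 0.29 (SE 0.14, limma adjusted p = 0.455), or 0.17 without HFD sample 3.

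Fst, the gene of follistatin, is given by sample because its product binds that of Inhbb, a choice made after its values were seen. It measured 61.3, 30.6 and 60.2 normalized counts in the HFD samples and 76.1, 67.8 and 83.1 in the control samples, and so every HFD sample lay below every control sample, HFD sample 2 by the most. The log2 fold change was -0.63 (SE 0.31), with a limma unadjusted p of 0.0686 and an adjusted p of 0.455, and it was -0.31 without HFD sample 2. Fstl3, a second activin-binding protein, measured 286, 318 and 455 and 322, 194 and 249, which overlapped, with a log2 fold change of 0.47 (SE 0.22), or 0.27 without HFD sample 3. Chrdl1 and the decoy receptor gene Bambi stood at 0.16 and 0.20. Grem1 was listed at 0 in 5 samples and had 2 reads in control sample 1, so no difference could be measured at this depth.

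The nuclear repressors Ski, Skil and Tgif1, which restrain transcription by SMADs, all had higher values in obese atria under every scaling, and none passed the adjusted threshold. Skil, itself a target of TGF-β, measured 432, 507 and 622 normalized counts in the HFD samples and 327, 303 and 485 in the control samples. Control sample 3 lay between HFD samples 1 and 2, so the diets overlapped. The log2 fold change was 0.50 (SE 0.20, limma unadjusted p = 0.031, adjusted p = 0.349). Tgif1 did not overlap between the diets, at 186 to 219 normalized counts in the HFD and 144 to 175 in the control samples, with a log2 fold change of 0.34. Ski, the most abundant of the 3, had a log2 fold change of 0.13.

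Among the target genes, Tgfbi alone reached an unadjusted p under 0.05, and none passed the adjusted threshold. It encodes a matrix protein induced by TGF-β and measured 744, 779 and 852 normalized counts in the HFD samples against 1083, 945 and 1019.8 in the control samples. Every HFD sample lay below every control sample, with a spread within each diet smaller than the gap between the means. Tgfbi had a log2 fold change of -0.36 (SE 0.12), with a limma unadjusted p of 0.0111 and an adjusted p of 0.224. It ranged from -0.41 to -0.31 with single samples left out.

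Ctgf, the matricellular growth factor often read as a marker of TGF-β activity, is given by sample for its one high value, which was seen first. It measured 6166, 7547 and 14570.4 normalized counts in the HFD samples and 6754, 5333 and 7522 in the control samples. HFD samples 1 and 2 lay within or next to the range of the control samples, and HFD sample 3 stood far above all others. The log2 fold change was 0.44 (SE 0.27, limma adjusted p = 0.567), and it was 0.076 without HFD sample 3 and 0.70 without HFD sample 1. HFD sample 3 also had the highest sum of atrial myocyte markers, whose largest term was Nppa, though not the highest value of each marker. The part of that sum in the Ctgf value of HFD sample 3 was not tested.

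The Id genes encode inhibitors of basic helix-loop-helix factors and are direct targets of BMP signaling. Their log2 fold changes were 0.20 for Id1, -0.10 for Id2 and 0.029 for Id3, and the intervals of -0.11 to 0.51, -0.41 to 0.21 and -0.27 to 0.33 all lay within 1 in either direction. Id4 was scarce, at 29.5 to 32.6 normalized counts in the HFD samples and at most 27.3 in the control samples, and did not overlap. Its log2 fold change of 0.67 had an interval of -0.22 to 1.56.

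**Figure D4:**
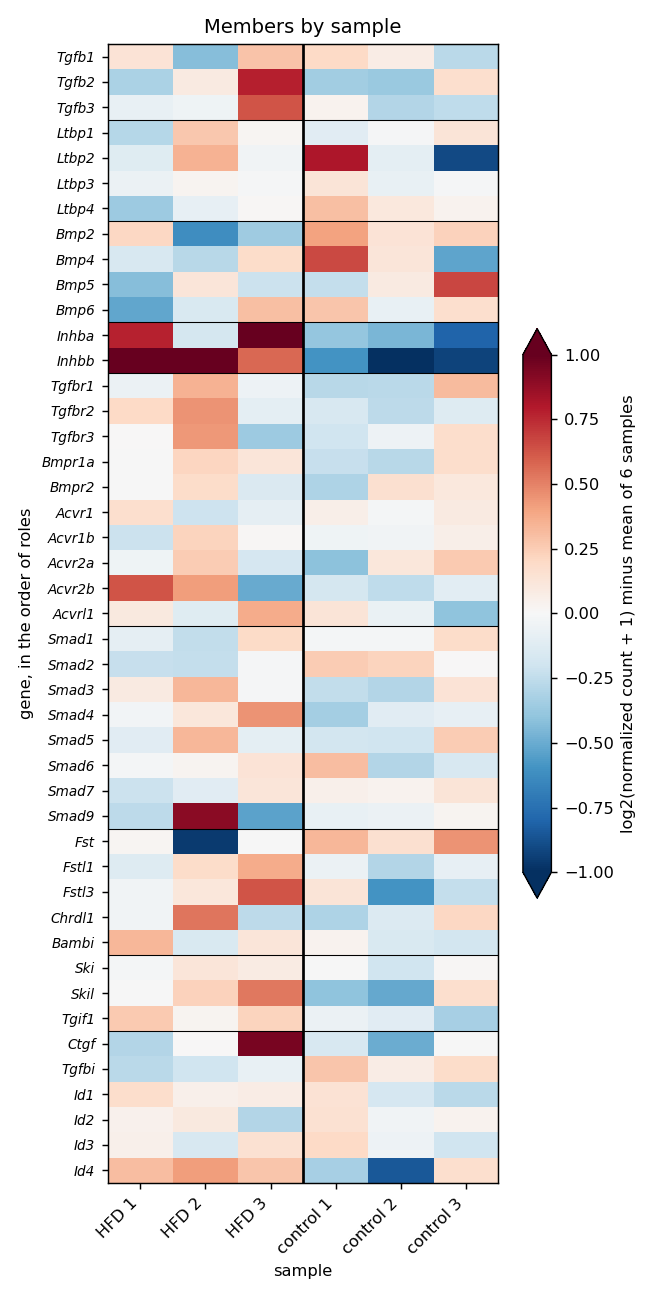
Log2(normalized count + 1) of each of the 45 members tested, minus its mean over the 6 samples (color, clipped at 1 in either direction), with samples in columns and genes in rows by role. Inhbb and Inhba show the strongest contrast between the diets, HFD sample 3 holds single high values such as Ctgf, and control sample 2 is the highest sample for no member.

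Single samples stood out over the members as a whole. Control sample 2 was the lowest of the 6 samples for 15 of the 45 members (33.3%) and the highest for none. Over all genes tested it was the lowest for 15.6% and the highest for 15.7%. HFD samples 2 and 3 held the highest value of 13 and 12 members. Against 7 members (15.6%) with all samples, 3 members (6.67%) had an unadjusted p under 0.05 without control sample 2, where 8.16% of all genes did. The number was 12 (26.7%, against 12.1% of all genes) without HFD sample 1. It was 4 (8.89%) without HFD sample 2 and 4 without control sample 1, against 9.60% and 9.70% of all genes. The part of depth, mitochondrial share and ventricular markers in the values of control sample 2 was not tested. With mitochondrial genes left out and totals made equal, the number stayed at 7 and the median log2 fold change of the members was 0.092. The median coefficient of variation of the members was 17.2% among the HFD and 13.1% among the control samples, against 15.3% and 13.2% over all genes tested.

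**Figure D5:**
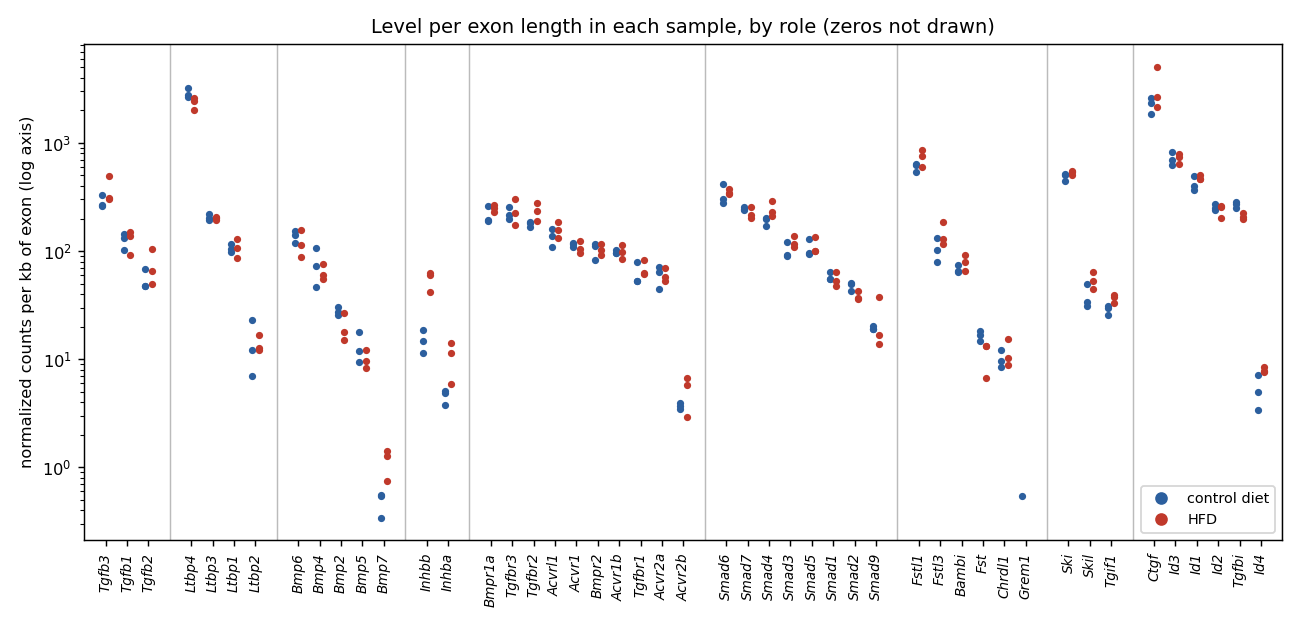
Normalized counts per kilobase of exon (vertical log axis) of the 47 members in each of the 6 samples, control diet in blue and HFD in red, grouped by role. Ctgf and Ltbp4 lie highest, and Grem1 and Bmp7 lie lowest, with values of 0 not drawn.

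Levels between genes were compared per kilobase of exon. Ltbp4, at 2366 ± 311 in the HFD and 2881 ± 278 in the control samples (SD, n = 3), and Ctgf, at 3295 ± 1575 and 2285 ± 388, were the most abundant members, with ranges that overlapped in the HFD but not in the control samples. The next in lean atria were Id3 at 713 ± 101, Fstl1 at 599.6 ± 52.0, Ski at 490.0 ± 40.1 and Id1 at 418 ± 64.0. The samples of Id3 and Fstl1 overlapped, as did those of Ski and Id1, while those of Fstl1 lay above those of Ski.

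Of the TGF-β ligands, Tgfb3 stood highest per kilobase in both diets, at 286 ± 36.6 in lean atria, followed by Tgfb1 at 126 ± 20.1 and Tgfb2 at 54.5 ± 12.1. In the HFD samples the ranges of Tgfb1 and Tgfb2 overlapped. Bmp6 led the BMP ligands at 138 ± 16.8 in lean atria, before Bmp4 at 74.7 ± 29.8. Among the receptors Tgfbr3, Bmpr1a and Tgfbr2 stood at 223 ± 29.3, 215 ± 38.6 and 178 ± 8.63 in lean atria, where the samples of Tgfbr3 and Bmpr1a overlapped and those of Tgfbr2 lay below both, and Acvr2b stood lowest at 3.70 ± 0.206. The inhibitory Smad6 and Smad7 and the shared partner Smad4 were the SMADs with the highest levels, at 333 ± 76.5, 248 ± 8.61 and 189.5 ± 17.7 in lean atria and at 351 ± 20.3, 226 ± 27.2 and 244 ± 42.3 in obese atria, where the samples of Smad7 and Smad4 overlapped. In lean atria Smad3 stood at 101 ± 17.2 and Smad2 at 48.0 ± 4.40.

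Of 64 further genes of the pathway, 51 were tested, and 2 rose and none fell at an adjusted p under 0.05, against 0.746% of all genes. At an unadjusted p under 0.05 there were 13 (25.5%, against 12.2% of all genes), 11 higher and 2 lower, and the diets did not overlap for 14 (27.5%, against 18.0%). Of the 10 TGF-β-responsive genes among them, 4 reached an unadjusted p under 0.05. These genes were listed with earlier results of these data known, so the shares are no test of the pathway. Lox, the gene of the collagen cross-linking enzyme lysyl oxidase, rose and measured 260.2, 245 and 232 normalized counts in the HFD samples against 122, 120.5 and 131 in the control samples. The samples of each diet lay close together and the diets were far apart. Its log2 fold change was 0.97 (SE 0.16, limma adjusted p = 0.0252). The call of Lox was lost without a variance trend and when any sample but HFD sample 3 was left out, with limma adjusted p of 0.0163 to 0.116 over the 6 fits.

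Timp1, an inhibitor of matrix metalloproteinases, measured 242, 173 and 241 normalized counts in the HFD samples and 133, 119.8 and 89.6 in the control samples. The diets did not overlap, and the log2 fold change was 0.93 (SE 0.21, limma adjusted p = 0.0826). Over all alternatives the adjusted p of Timp1 ran from 0.00923 to 0.234, and it passed in 1 of them. The fibrillar collagen genes of the same list did not pass the test, with log2 fold changes of 0.20 for Col1a1, -0.031 for Col1a2 and 0.11 for Col3a1. Fibronectin (Fn1) stood at 0.14 and periostin (Postn) at 0.19. Acta2 had a larger log2 fold change of 0.54 (limma unadjusted p = 0.0511, adjusted p = 0.413), with samples that overlapped between the diets. Col1a1 also belongs to the fibroblast markers given above.

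Bmp10, an atrial BMP that is also counted among the atrial myocyte markers, measured 1386, 5575 and 7959.9 normalized counts in the HFD samples and 2211, 1375 and 5568 in the control samples. The values spread several-fold within each diet and overlapped, and the log2 fold change of 0.62 had an interval of -0.73 to 1.97. For Bmp10 it was 0.11 without HFD sample 3, 0.17 without control sample 2, 0.37 without HFD sample 2, 1.18 without control sample 3 and 1.38 without HFD sample 1. Among the further ligands, Gdf15, a stress-induced cytokine, measured 60.3, 47.9 and 122 against 20.2, 32.9 and 9.84 (log2 fold change 1.86, limma adjusted p = 0.12). Over the alternatives the adjusted p of Gdf15 ran from 0.0106 to 0.281, and it passed in 1 of them. Gdf10 and Bmp3 had lower values in obese atria, with log2 fold changes of -1.002 and -0.70 and limma adjusted p of 0.143 and 0.196. Like Acvr1c, Furin, Bmper, Nbl1, Fbn1, Smurf2 and Cilp, these 3 genes were singled out after their values were seen, for an unadjusted p under 0.05.

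Acvr1c encodes ALK7, a type I receptor that activin B can use, and is known from adipose tissue. It measured 61.3, 23.5 and 22.7 normalized counts in the HFD samples and 15.7, 11.0 and 14.2 in the control samples. HFD sample 1, which also held the highest sum of white adipocyte markers, stood far above the rest, and the other 2 HFD samples lay above every control sample. The log2 fold change was 1.19 (SE 0.49, limma adjusted p = 0.36), and it was 0.73 without HFD sample 1. The part of the adipocyte sum in it was not tested.

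Furin, the protease that cleaves the precursors of TGF-β family ligands, measured 4076, 4216 and 4004 normalized counts in the HFD samples and 3268, 3262 and 3145 in the control samples. The samples of each diet lay close together and the diets did not overlap, with a log2 fold change of 0.35 (SE 0.10, limma adjusted p = 0.159). The BMP-binding Bmper and Nbl1 had log2 fold changes of 0.70 and 0.43, the microfibril gene Fbn1 one of 0.29, the ubiquitin ligase gene Smurf2 one of 0.28 and the matrix gene Cilp one of 0.57. Of the 14 intracellular regulators listed, Smurf2 alone reached an unadjusted p under 0.05.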

How the data were processed

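Atrial RNA in 3 samples from obese and 3 from lean mice was sequenced as single-end reads from directional libraries. Per the methods, the authors aligned reads to GRCm38 (Ensembl 79) with STAR, kept unique alignments and quantified genes with Salmon; tool versions are not given in the sources used here. The deposited signal per gene is their read count divided by a DESeq2 size factor, and 100% of values in each sample were whole reads times that factor (tolerance 0.001). The authors also deposited columns of their own comparison (log2 fold change, standard error, p-values, scores), which were not used. Strand use in counting is not stated, so genes that overlap on opposite strands, or share reads with near copies, are uncertain.

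The main test was that of limma 3.58.1, run in R 4.3.3 (lmFit, eBayes with variance trend), on log2(normalized count + 1), which understates changes of low genes, over the 15275 of 24679 genes with any read that had a mean of at least 10, with Benjamini-Hochberg adjustment, a threshold of 0.05, all 6 samples and no covariate. An exact permutation test of 3 against 3 cannot go below 0.1. Members and other lists were chosen with earlier results of these data known. Values are given by sample for members with an adjusted or unadjusted p under 0.05, else for the member of a role with the highest mean; of other lists, genes with an adjusted p under 0.05, Bmp10 and Timp1 are named, except 1 gene that is not reported here. Symbols came from GENCODE M21 (42462 of 43432 identifiers, 97.8%), as did exon lengths, which may differ from those of Ensembl 79. Promoters came from RefSeq (GRCm38.p6). The alternatives were quantile normalization, mitochondrial genes left out, no variance trend, other filters, a pseudocount of 0.1, a replicate block, each sample left out, and DESeq2 1.42.0 and edgeR 4.0.16 on recovered reads. In simulated data (15102 genes) limma recovered 62 of 100 genes changed 2-fold and 83 of 100 changed 4-fold, and called 13 unchanged genes. No 2 samples of a diet agreed within sampling noise.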

Additional observations from a re-analysis of the deposited data

How the results depend on the processing

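Over 16 alternatives, Inhbb was the called member wherever 1 was called. No member and no further pathway gene passed without a variance trend, where no gene at all did so (limma, 0 of 15275, with 1717 genes at an unadjusted p under 0.05). DESeq2 called 483 genes, 1 member and 4 further pathway genes, and edgeR called 91 with RLE and 87 with TMM, against 114 by limma. Leaving out single samples gave 14 to 342 genes, 0 to 1 members, 3 to 12 members at an unadjusted p under 0.05 and 0 to 2 further pathway genes, and the median log2 fold change of members ran from 0.025 to 0.15. The deviations of same-numbered samples correlated at 0.12, -0.027 and -0.0039, and those of other-numbered samples at -0.15 to 0.16. The replicate numbers of the labels thus showed no pairing, which 3 samples per diet cannot exclude. With the number as a replicate block, 157 genes, 1 member (Inhbb, adjusted p = 0.00636) and 2 further pathway genes passed, 7 members had an unadjusted p under 0.05, and the median was 0.096.

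Signs turned for members near 0. Under quantile normalization these were Ltbp1 (-0.042), Bmpr2 (-0.020), Acvr1b (-0.0080) and Id3 (-0.023), and without mitochondrial genes Ltbp1 (-0.0028). In DESeq2, edgeR with TMM and edgeR with RLE, Tgfb1 stood at 0.013, 0.012 and 0.012 and Ltbp2 at -0.020, -0.019 and -0.018. With single samples left out, the log2 fold changes that turned ran from -0.15 to 0.21 for Tgfb1, from -0.13 to 0.15 for Ltbp1, from -0.29 to 0.57 for Ltbp2, from -0.067 to 0.032 for Ltbp3, from -0.48 to 0.12 for Bmp4, from -0.16 to 0.24 for Tgfbr3, from -0.12 to 0.11 for Bmpr2, from -0.10 to 0.12 for Acvr1b, from -0.17 to 0.16 for Acvr2a, from -0.22 to 0.0029 for Smad1, from -0.063 to 0.23 for Smad5, from -0.026 to 0.28 for Smad6, from -0.36 to 0.36 for Smad9, from -0.066 to 0.33 for Chrdl1, from -0.18 to 0.018 for Id2 and from -0.061 to 0.14 for Id3. The cause was not tested, and counting depth limits Acvr2b, Bmp5, Id4, Bmp7 and Grem1.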
